A study of Rattus norvegicus with 24 samples.

Results

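Heterotrimeric G proteins, the enzymes that make cyclic AMP and the regulators that end G protein signalling were measured in rat whole brain after repeated exposure to inhaled anesthetics. The genes were those whose symbol on the array begins with Gna, Gnb, Gng, Rgs or Adcy, among probe sets assigned to exactly 1 symbol. There were 37 such genes of 4736 genes with 1 symbol, and each was represented by the probe set with the highest mean signal over all arrays. The rule used names and overall brightness only, not any difference between groups.

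The series holds 24 arrays in 5 groups. The 12 control arrays came from rats given halothane for 3 min, at a concentration the labels do not give, and then perfused with ice-cold saline, so the controls had also met halothane. The other groups, with 3 arrays each, received 5 or 10 exposures of 90 min to 0.8% halothane or 1% isoflurane. These exposures were given 2 a day with 3 h of recovery between them, over 2.5 or 5 days. Strain, age and sex are not given in the labels, nor is the time from the last exposure to collection in the sources used here. The labels do not say that replicates were separate animals, so a p-value here reflects only how far these arrays spread, and part of that spread may be technical.

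A heterotrimeric G protein couples a receptor in the cell membrane to an effector inside the cell. The alpha subunit binds GTP when the receptor is activated and separates from the beta and gamma subunits, and both parts then act on effectors such as adenylyl cyclases, phospholipase C beta and potassium channels. Regulators of G protein signalling (RGS proteins) speed up GTP hydrolysis by the alpha subunit and so shorten the signal. In the striatum, dopamine and adenosine receptors act on a particular set of these proteins, which includes the alpha subunit Golf (Gnal), the gamma subunit Gng7, adenylyl cyclase 5 (Adcy5) and Rgs9.

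The values were probe set intensities on a linear scale, called signals here, and all arrays shared nearly the same trimmed mean, between 150.1 and 150.2. A floor of 16.5, the 25th percentile over all probe sets and arrays, replaced lower signals before log2 was taken. On 9 arrays the bacterial spike-in control probe sets, which report the labelling and hybridization steps, stood higher than on the other 15, with a gap of 0.57 on the log2 scale between the levels. The high arrays were replicate 3 of every exposed group and 5 controls. Markers of neurons (8 genes), astrocytes (7 genes) and oligodendrocytes (9 genes) were measured above the floor, as whole brain should have them.

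Of the 37 genes, 33 passed the filter of a signal above the floor on at least 3 arrays, and these 33 were tested. They comprised 2 genes of the Gs class of alpha subunits, 4 of the Gi/o class, 1 each of the Gq and G12 classes, gustducin alpha (Gnat3), 4 beta subunits, 5 gamma subunits, 6 adenylyl cyclases, 7 RGS genes and 2 genes that only share the prefix. Those 2 were Adcyap1, which encodes the neuropeptide PACAP, and Adcyap1r1, its receptor. The remaining 4 genes were never above the floor: the highest signal on any array was 5.2 for Adcy4, 12.2 for Gnb3, 8.6 for Rgs1 and 4.1 for Rgs18. For 14 of the 37 genes the array carried more than 1 probe set, 58 in all.

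No member passed an adjusted p of 0.05 in any of the 9 comparisons made with limma, in which p-values were adjusted over all 7389 probe sets tested. Across those probe sets the share called was 0.0135% for 5 halothane exposures against control, 0.0406% for 10 halothane exposures, and 0% for 5 isoflurane exposures, for 10 isoflurane exposures and for the mean of the exposed groups. At an unadjusted p under 0.05, 1 of 33 members passed with 5 halothane exposures (3.03%), against 3.53% of all probe sets. With 10 halothane exposures 2 passed (6.06%, against 7.52% of all), with 5 isoflurane exposures 0 (against 2.14%) and with 10 isoflurane exposures 2 (6.06%, against 9.05%). For the mean of the exposed groups 3 passed (9.09%), against 8.44% of all. These shares were near the background in each comparison.

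Single-group log2 fold changes of the members ran from -0.86 to 0.47. In the comparison of the mean of the exposed groups with control, the median log2 fold change of the members was -0.058, against -0.011 over all probe sets. In that comparison 22 of 33 members (66.7%) were lower than control, against 53.1% of all probe sets. With 10 halothane exposures 24 of 33 members (72.7%) were lower, against 56.2% of all, with a median of -0.11 against -0.033. With 5 halothane exposures it was 23 of 33 (69.7%, against 51.8% of all), with 5 isoflurane exposures 16 (48.5%, against 48.4%) and with 10 isoflurane exposures 19 (57.6%, against 50.5%). The 95% interval of the mean of the exposed groups lay within 1 log2 unit of 0 for 30 of 33 members (90.9%, against 98.4% of all probe sets), and within a 1.5-fold change for 25 (75.8%, against 83.1%). For the single groups it lay within a 1.5-fold change for fewer members: 20 with 5 halothane exposures (60.6%, against 56.2% of all), 18 with 10 (54.5%, against 50.5%), 22 with 5 isoflurane exposures (66.7%, against 58.2%) and 20 with 10 (60.6%, against 49.5%). The wider limit of 1 log2 unit held for 29 members with 5 halothane exposures (against 89.3% of all), 28 with 10 (87.9% of all), 28 with 5 isoflurane exposures (90.2% of all) and 28 with 10 (87.6% of all). The intervals of Gna15, Gnb4 and Rgs9 reached beyond 1 log2 unit in every comparison with control.

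**Figure D1:**
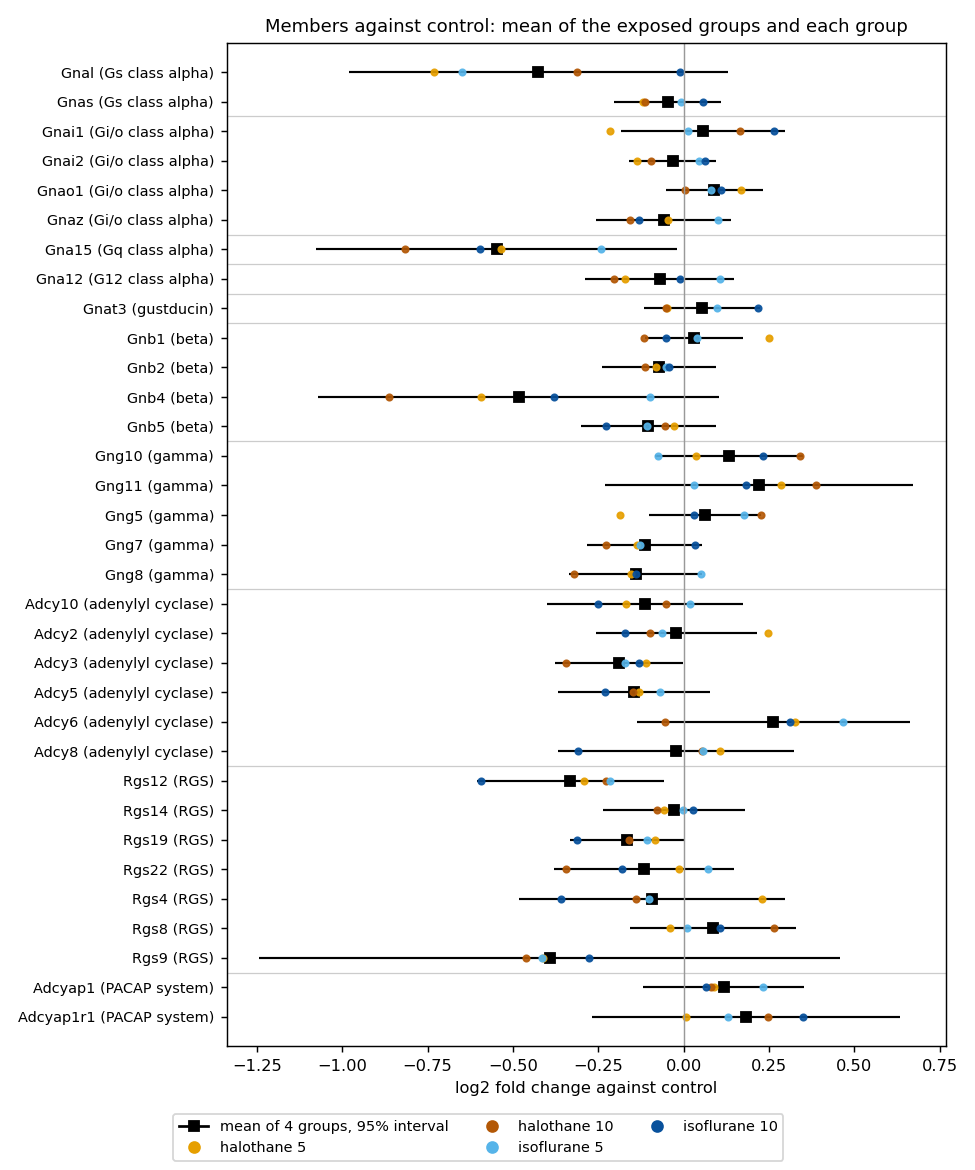
Log2 fold change against control of the 33 tested members, grouped by subfamily; squares and lines are the mean of the 4 exposed groups with its 95% interval, and coloured points are the single groups. Nearly all squares lie close to 0, and the widest intervals belong to Gna15, Gnb4, Gnal and Rgs9.

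Among the alpha subunits that stimulate adenylyl cyclase, Gnas, the widespread Gs alpha, was steady. Its signal ran from 3762.1 to 5973.2 in the controls and from 3831.9 to 5312.8 over the 12 exposed arrays. Its log2 fold change for the mean of the exposed groups was -0.05 (95% interval -0.20 to 0.11, adjusted p = 0.895), and its other probe sets gave -0.012, 0.024 and 0.13. Gnal, the Golf alpha of striatum and olfactory neurons, was far more variable. Its control signals ranged from 26.8 to 82.5 with a median of 49.2. After 5 halothane exposures the signals were 14.9, 93.9 and 17.2, so the arrays lay on both sides of the control range. The log2 fold changes of Gnal were -0.73 with 5 halothane exposures, -0.31 with 10, -0.65 with 5 isoflurane exposures and -0.011 with 10, each with a standard error of 0.42 and none past the threshold.

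The Gi/o alpha subunits inhibit adenylyl cyclase and regulate channels, and 2 of them, Gnai2 and Gnao1, had the smallest standard errors of all members in the comparison of the mean of the exposed groups (0.06 and 0.07). Gnao1, the Go alpha abundant in neurons, had control signals of 946.6 to 1501.0 and exposed signals of 1130.8 to 1427.7, wholly inside that range. Its log2 fold change was 0.09 for the mean of the exposed groups (95% interval -0.05 to 0.23, adjusted p = 0.735), and a second probe set gave 0.10. For Gnai2 it was -0.03 (95% interval -0.16 to 0.10). Gnaz, an inhibitory alpha that pertussis toxin does not modify, gave -0.06, and Gnai1 gave 0.06.

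Gna15, a Gq-class alpha subunit known mainly from blood-forming cells, had the lowest point estimate among the members for the mean of the exposed groups. Its control signals were 27.9 at the lowest, 87.2 at the median and 111.6 at the highest. After 10 halothane exposures they were 52.9, 28.6 and 37.3, and after 10 isoflurane exposures 48.1, 44.1 and 41.9. Every one of these 6 arrays was below the control median. The control at 27.9 was nonetheless below all 6, and those at 29.6 and 31.2 were below all but that at 28.6. The groups thus overlapped. The log2 fold changes were -0.82 (SE 0.40, adjusted p = 0.670) and -0.60 (SE 0.40, adjusted p = 0.692), and -0.55 for the mean of the exposed groups (SE 0.26, adjusted p = 0.582). Blood markers are given beside it, since the labels mention saline perfusion, which clears blood, for the controls only. All 6 tested blood markers, of 12 listed, were lower than control with 10 halothane exposures (median -0.47), with 10 isoflurane exposures (median -0.26), and with 5 halothane exposures (median -0.22), though none passed the threshold. With 5 isoflurane exposures 3 were higher and 3 lower (median -0.026), where Gna15 gave -0.24 (SE 0.40, adjusted p = 1). Their mean log2 signal was 6.27 to 6.93 in controls, 5.96 to 6.22 after 10 halothane exposures and 5.98 to 6.61 after 10 isoflurane exposures, and none was listed at 0. Their part in the Gna15 values was not tested. In whole tissue, fewer cells of a type and less RNA per cell cannot be told apart.

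Gna12, an alpha subunit of the G12 class, had a log2 fold change of -0.07 for the mean of the exposed groups, and its other probe set gave 0.19. Gnat3, the alpha subunit of taste cells, exceeded the floor on only 6 of 24 arrays, and its log2 fold change of 0.22 with 10 isoflurane exposures came from 1 array with a signal of 28.8 beside 9.6 and 1.2.

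Among the beta subunits, Gnb1 was higher after 5 halothane exposures, without passing the adjusted threshold. Its signals there were 1039.4, 968.9 and 942.5, against 673.9 to 955.3 in controls with a median of 839.6. The lowest of the 3 lay inside the control range and the other arrays above it. The log2 fold change was 0.25 (SE 0.11, adjusted p = 1), and the gene's other probe sets gave 0.40 and 0.10. After 10 halothane exposures the signals were 747.2, 897.0 and 663.0, and the comparison of 10 with 5 halothane exposures gave -0.36 (95% interval -0.65 to -0.08, adjusted p = 1). The other probe sets gave -0.40 and -0.30 in that comparison, so all 3 probe sets had the same direction. Gnb2 gave -0.07 for the mean of the exposed groups (95% interval -0.24 to 0.09).

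Gnb4 and Gnb5 had lower point estimates. All 3 arrays after 10 halothane exposures had Gnb4 signals under the floor (10.0, 11.9 and 11.3), but controls ranged from 6.6 to 75.7, and the gene exceeded the floor on only 12 of 24 arrays. The log2 fold change was -0.86 (SE 0.45, adjusted p = 0.676) and depends on the floor. Gnb5, the beta subunit that binds Rgs9 and its relatives, gave -0.23 with 10 isoflurane exposures (SE 0.15, adjusted p = 0.684). A second Gnb5 probe set gave -0.52 there (95% interval -0.89 to -0.15, adjusted p = 0.371), which also did not pass.

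The 5 gamma subunits, which anchor the beta-gamma pair in the membrane, did not move as a group. With 10 halothane exposures 3 were higher than control and 2 lower. Gng10 signals were 302.1, 270.3 and 255.8 against 160.0 to 272.8 in controls (log2 fold change 0.34, SE 0.17, adjusted p = 0.669). Gng8, a gamma subunit of olfactory neurons, had signals of 62.9, 59.2 and 51.0 against 59.7 to 88.2 (-0.32, SE 0.15, adjusted p = 0.657). The groups overlapped for both genes. A second Gng8 probe set gave 0.21, the opposite direction, with an interval that included 0.

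Gng5, a gamma subunit found in most tissues, was, after Gnb1, the member with the lowest p between 5 and 10 halothane exposures. Its signals were 221.1, 162.5 and 178.5 after 5 exposures and 248.9, 243.5 and 249.1 after 10. The control range (175.4 to 265.6) held 5 of these 6 arrays. The log2 fold change of 10 against 5 exposures was 0.41 (95% interval 0.08 to 0.74, adjusted p = 1). With 5 exposures of each agent, halothane against isoflurane gave -0.36 for Gng5 (95% interval -0.69 to -0.04, adjusted p = 1), where the isoflurane signals were 195.0, 234.2 and 299.6. In each of these comparisons 0.0135% of all probe sets and 0 members were called. At an unadjusted p under 0.05, 2 members passed for 10 against 5 halothane exposures (6.06%, against 3.76% of all) and 1 passed for halothane against isoflurane at 5 exposures (3.03%, against 2.98% of all).

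Adcy3, the membrane adenylyl cyclase of olfactory cilia that is also present in brain, was the only member whose 3 arrays in an exposed group all lay outside the control range. After 10 halothane exposures its signals were 165.5, 163.6 and 149.5. The controls had 172.6 at the lowest, 194.7 at the median and 268.2 at the highest. Over all probe sets, 0.528% had all 3 of these arrays below every control and 0.595% had them above. In the other groups no member lay wholly outside the control range. All probe sets had 0.230% below and 0.122% above it with 5 halothane exposures, 0.0947% and 0.135% with 5 isoflurane exposures, and 0.433% and 0.487% with 10 isoflurane exposures. The log2 fold change was -0.35 (SE 0.14, 95% interval -0.64 to -0.05), and it did not pass after adjustment (p = 0.598). Signals after 5 halothane exposures were 167.6, 161.3 and 244.8, after 5 isoflurane exposures 183.6, 186.6 and 169.6, and after 10 isoflurane exposures 150.7, 177.3 and 237.6. The mean of the exposed groups gave -0.19 (95% interval -0.38 to -0.0018, adjusted p = 0.582). Of the 12 exposed arrays, 10 were below the control median and the other arrays, replicate 3 of halothane 5 and of isoflurane 10, were among the higher values. Without the replicate 3 arrays of the exposed groups, an alternative chosen after seeing the data, the mean of the exposed groups gave -0.26 (adjusted p = 0.262).

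Of the 6 adenylyl cyclases, Adcy3 included, 5 had values below 0 with 10 halothane exposures (median -0.076) and 5 with 10 isoflurane exposures (median -0.20), and 3 with 5 exposures of either agent. Adcy5 was below 0 in all 4 groups (-0.13 and -0.15 with 5 and 10 halothane exposures, -0.070 and -0.23 with 5 and 10 isoflurane exposures), and none of these values passed. A second Adcy5 probe set gave -0.48 and -0.26 with 5 and 10 halothane exposures. With 5 and 10 isoflurane exposures it gave 0.054 and 0.27, the opposite direction. Adcy6 was higher in 3 of the 4 groups, with 0.47 for 5 isoflurane exposures (SE 0.31, adjusted p = 1) and signals of 71.5, 61.4 and 66.3 against 21.7 to 70.6 in controls. Adcy2 gave -0.022 for the mean of the exposed groups (95% interval -0.26 to 0.21). The calcium-stimulated Adcy8 gave -0.023 (95% interval -0.37 to 0.32). Adcy10, the soluble cyclase, was above the floor on 9 of 24 arrays, so its values are near the limit of measurement. The neuropeptide gene Adcyap1 gave 0.12 for the mean of the exposed groups and 0.23 with 5 isoflurane exposures (SE 0.18, adjusted p = 1). The other Adcyap1 probe sets gave 0.0053 and -0.17 for that mean, and 0.17 and -0.061 with 5 isoflurane exposures. The PACAP receptor gene Adcyap1r1 gave 0.18 for the mean of the exposed groups.

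Among the RGS genes, Rgs12 and Rgs19 had the lowest p-values of any member after 10 isoflurane exposures. Rgs12 encodes a large RGS protein with several further domains. Its signals there were 129.6, 138.3 and 67.5, against 121.9 at the lowest, 167.4 at the median and 204.7 at the highest in controls. All 3 arrays were below the control median, 2 of them inside the control range and replicate 3 far below it. The log2 fold change was -0.59 (SE 0.21, 95% interval -1.03 to -0.16), and the adjusted p was 0.382. Without the replicate 3 arrays of the exposed groups it was -0.26 (adjusted p = 0.739), so replicate 3 decides its size. The mean of the exposed groups gave -0.33 for Rgs12 (adjusted p = 0.470), and -0.15 without those arrays (adjusted p = 0.638).

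Rgs19, a small RGS protein that acts on Gi-class alpha subunits, had signals of 86.7, 94.0 and 74.6 after 10 isoflurane exposures. Controls ran from 89.1 to 129.2 with a median of 106.9, so 2 of the 3 arrays were below every control. The log2 fold change was -0.31 (SE 0.13, 95% interval -0.58 to -0.05, adjusted p = 0.459). After 10 halothane exposures the signals were 94.9, 94.2 and 93.7, all inside the lower part of the control range. The mean of the exposed groups gave -0.17 (95% interval -0.33 to 0.0017, adjusted p = 0.582). Rgs14, Rgs22 and Rgs8 gave -0.027, -0.12 and 0.085 for the mean of the exposed groups.

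**Figure D2:**
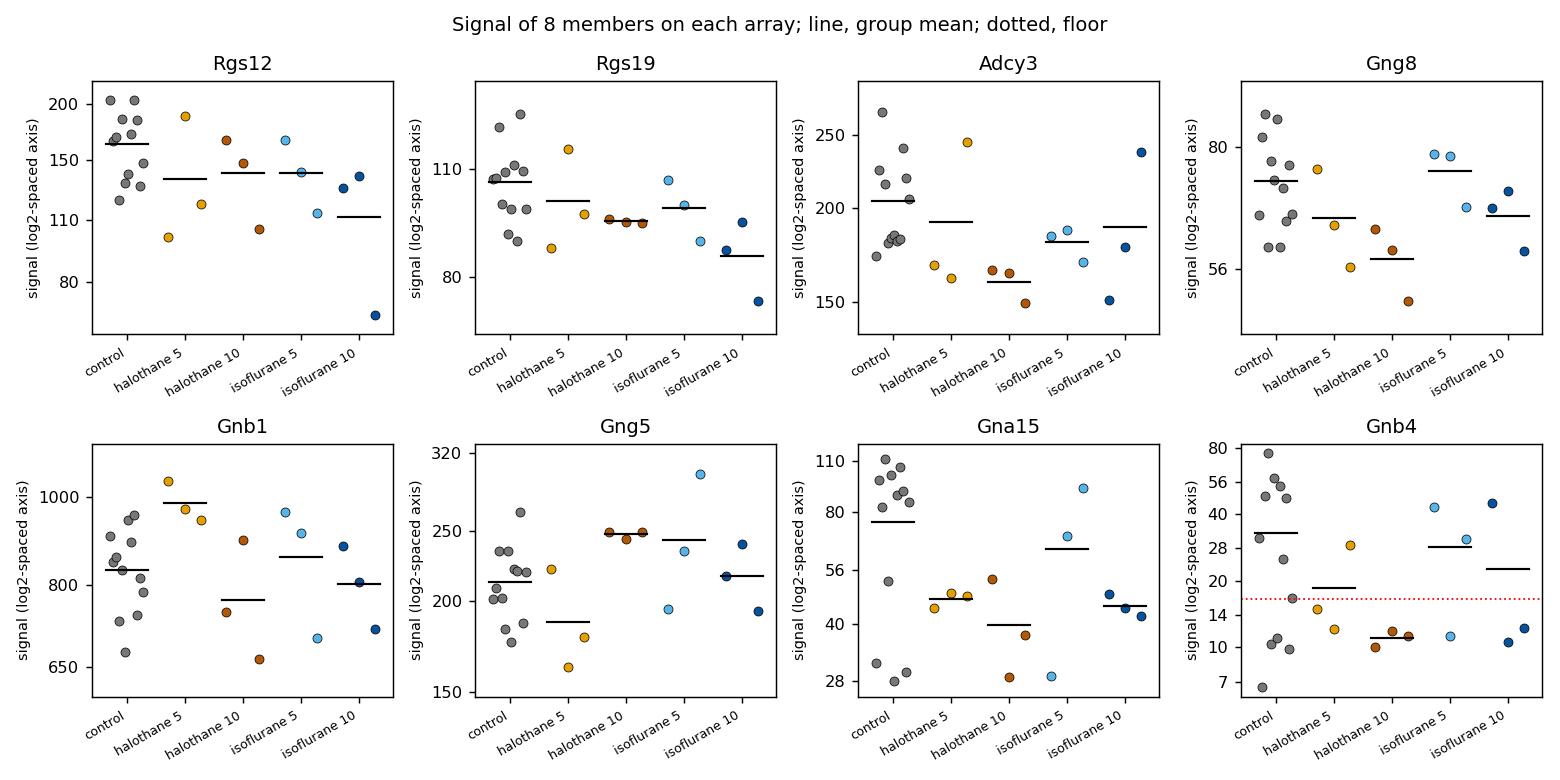
Signal of 8 members on each of the 24 arrays on a log2-spaced axis, by group; each point is an array, the line is the group mean and the dotted line in the Gnb4 panel is the floor of 16.5. All 3 halothane 10 arrays are below every control for Adcy3, and the low isoflurane 10 mean of Rgs12 rests largely on the array at 67.5.

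The agents were also compared with each other at the same number of exposures, though their concentrations differed by label (0.8% and 1%). At 10 exposures, 0 members passed (0% of all probe sets), and at an unadjusted p under 0.05 there were 0 members against 3.11% of all. The members with the lowest p were Gnat3 (-0.27 for halothane against isoflurane), Gng7 (-0.26, 95% interval -0.60 to 0.08) and Rgs12 (0.37, 95% interval -0.18 to 0.92), each with an adjusted p of 1. The other Gng7 probe set gave 0.063. Leaving out isoflurane 10 replicate 3 took the Rgs12 value to 0.038, and leaving out isoflurane 10 replicate 2 took the Gnat3 value to 0. At 5 exposures the members with the lowest p were Gng5, Gnb1 (0.21) and Gnai2 (-0.18). Other probe sets of Gnai2 gave -0.14 and 0.075. For isoflurane, 10 against 5 exposures gave 0.31 for Gng10, -0.38 for Rgs12 and -0.21 for Rgs19, each with an adjusted p of 1. Without isoflurane 10 replicate 1 the Gng10 value was 0.084, and without isoflurane 10 replicate 3 the Rgs12 value was -0.050. There 0 members and 0% of all probe sets were called, and 0 members had an unadjusted p under 0.05, against 3.00% of all. For halothane, Gnai1 gave 0.38 in the same comparison (95% interval -0.10 to 0.86), and from 0.14 to 0.59 with 1 array left out. With 3 arrays on each side the median 95% half-interval of a member was 0.45, against 0.35 in the comparisons of one exposed group with control.

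Probe sets of the same gene often disagreed in sign. Of the 13 genes with more than 1 tested probe set, all probe sets had the same sign in 6 with 5 halothane exposures, in 9 with 10 halothane exposures, in 5 with 5 isoflurane exposures and in 7 with 10 isoflurane exposures. The Gnb1 probe sets, for example, gave 0.17 and -0.074 beside 0.03 for the mean of the exposed groups.

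The downstream genes of the pathway likewise gave no call. None of the 16 tested genes of cyclic AMP and protein kinase A signalling, the 10 phosphodiesterases, the 17 genes downstream of Gq, the 11 genes of receptor regulation or the 2 G protein-gated potassium channel genes passed in any comparison with control. Pkib, an inhibitor of protein kinase A, gave 0.98 with 10 isoflurane exposures (SE 0.33, adjusted p = 0.370) and 0.69 for the mean of the exposed groups (adjusted p = 0.361). Plcb4, the phospholipase C beta of Purkinje cells, and Itpr1, the receptor for its product inositol trisphosphate, gave 0.37 and 0.36 for the mean of the exposed groups (adjusted p = 0.361 for both). With 10 halothane exposures they gave 0.51 (adjusted p = 0.461) and 0.62 (adjusted p = 0.331).

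With 5 halothane exposures the lowest p of the Gq list belonged to the scaffold gene Homer2 (-0.75, adjusted p = 1) and to Itpr2 (0.56, adjusted p = 1), and that of the cyclic AMP list to Pkib (0.49) and the exchange factor gene Rapgef3 (0.49). With 5 isoflurane exposures they belonged to the diacylglycerol kinase gene Dgkz (0.29) and Plcb4 (0.35), and to the anchoring protein gene Akap5 (0.34) and Prkar2b (-0.31), a regulatory subunit of protein kinase A. Prkar2b gave -0.41 with 10 halothane exposures, where Pkib gave 0.81. Dgkz gave 0.34 with 10 isoflurane exposures (adjusted p = 0.382), where Pkia, another inhibitor of protein kinase A, gave 0.28 and Itpr1 0.46. The transcription factor gene Creb1 gave -0.27 for the mean of the exposed groups.

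Of the phosphodiesterases, which break down cyclic nucleotides, Pde4b gave 0.18 and Pde4c -0.19 for the mean of the exposed groups. Pde5a (0.61) and Pde1b (-0.32) led with 5 halothane exposures, Pde4c (-0.34) and Pde4a (-0.32) with 10, Pde3a (-0.56) and Pde4b (0.14) with 5 isoflurane exposures, and Pde4b (0.31) and Pde3b (0.44) with 10. Pde1b is also on the list of striatal neuron markers used below. Of the genes of receptor regulation, Grk1, the receptor kinase of photoreceptors, gave -0.20 and the arrestin gene Arrb2 gave 0.12 for the mean of the exposed groups. Ric8a, a chaperone of alpha subunits, gave -0.30 with 10 isoflurane exposures (adjusted p = 0.485), with Grk1 at -0.39, and -0.14 with 5 halothane exposures, with Grk2 at -0.16. Grk1 (-0.36) and Ppp2r1a (-0.21) had the lowest p with 10 halothane exposures, and Grk2 (0.21) and Arrb2 (0.15) with 5 isoflurane exposures. Of the channels that beta-gamma subunits open, Kcnj3 gave 0.14 and Kcnj5 0.10 for the mean of the exposed groups, and over the 4 groups Kcnj3 ran from -0.13 to 0.45 and Kcnj5 from -0.0064 to 0.21. The mean control signals of Kcnj5 (10.1) and Akap5 (12.9) lay under the floor of 16.5, so the floor sets the size of their values.

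Markers of cerebellar neurons were higher beside Plcb4 and Itpr1, and Itpr1 is itself on that list. All 4 tested cerebellar markers, of 10 listed, were above control in each exposed group, with a median of 0.69 after 10 halothane exposures and of 0.46 for the mean of the exposed groups, and none passed the threshold. Their mean log2 signal was 8.39 to 9.69 in controls, 9.63 to 10.16 after 10 halothane exposures and 9.10 to 10.06 after 10 isoflurane exposures, and none was listed at 0. Rgs8, an RGS gene of Purkinje cells, had signals of 125.8, 162.6 and 173.7 after 10 halothane exposures, against 99.1 to 197.4 in controls. Its log2 fold change was 0.27 (SE 0.19, adjusted p = 0.751), and its other probe set also gave 0.27. The part of the cerebellar markers in these values was not tested.

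The largest differences among the members lay between arrays of the same group, not between groups. On replicate 3 of the exposed groups Rgs9, whose long form is found mainly in striatum, had signals of 18.7 (halothane 5), 14.3 (halothane 10), 14.6 (isoflurane 5) and 43.4 (isoflurane 10). On the other 8 exposed arrays it ran from 75.0 to 144.9. Controls ran from 24.8 to 143.6 with a median of 99.0. Rgs9 on replicate 3 was thus below both other arrays of its group in all 4 groups, and below every control in 3 of them.

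Other members were low on some or all of the same arrays. Gnal had 17.2, 19.6, 8.7 and 55.9 on them in the same order of groups, low in 3 groups and not in the fourth. In halothane 5, however, replicate 1 was lower still (14.9). Rgs4, an RGS gene of forebrain neurons, had 292.2, 169.6, 167.2 and 159.7, of which 3 were below every control (185.0 to 457.1). Adcy5 had 110.8, 109.7, 122.8 and 108.0, below every control (131.4 to 209.6) in all 4 groups. Replicate 2 of isoflurane 10 was also below every control for Adcy5 (121.1). A second Adcy5 probe set gave 13.1, 39.0, 31.8 and 53.2 on replicate 3, against 18.0 to 63.9 in controls. Gng7 had 301.3, 321.0, 309.9 and 404.7, inside the control range of 267.9 to 467.0. A second Gng7 probe set gave 85.6, 93.0, 86.5 and 102.2 on replicate 3, the lowest array of its group in all 4 groups. These values lay inside the control range of that probe set, 85.4 to 166.3. The mean difference on the log2 scale between replicate 3 and the other exposed arrays was -2.31 for Rgs9, -0.97 for Gnal, -0.92 for Rgs4, -0.70 for Adcyap1r1, -0.55 for Rgs12, -0.48 for Adcy5, -0.47 for Adcy6 and -0.068 for Gng7. It was above 0 for other members, up to 0.33 for Rgs8, and the median member was at -0.068, against -0.032 over all probe sets.

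Of the 33 members, 5 were lower on replicate 3 than on both other arrays in all 4 groups (15.2%, against 9.47% of all probe sets): Rgs9, Adcy5, Gnaz, Gnb1 and Gng8. None was higher in all 4 groups (0%, against 7.31%). These counts used the chosen probe set of each gene, and Rgs9 had no other. The other tested probe sets of Adcy5, Gnaz, Gnb1 and Gng8 did not keep the pattern. Replicate 3 of halothane 5 was the highest array of its group for those of Gnaz (70.1) and Gng8 (57.8). It was not the lowest for those of Gnb1 (164.3 and 681.9). For that of Adcy5, replicate 3 of isoflurane 10 was the highest of its group (53.2). The 7 tested markers of striatal neurons, of 13 listed, were low on the same arrays: their mean log2 signal was 6.72, 6.82, 6.67 and 7.14 on replicate 3, against 7.35 to 7.87 in controls and 7.40 to 8.03 on the other exposed arrays. None of these markers was listed at 0. Markers of other cell types also stood apart on some of these arrays. The 8 general neuron markers were at 9.39, 9.05, 9.45 and 9.30, against 9.24 to 9.72 in controls and 9.61 to 9.84 on the other exposed arrays. Only the value of halothane 10 (9.05) lay outside the control range, while all 4 were below the other exposed arrays. Cerebellar markers were above every control (at most 9.69) on replicate 3 of halothane 10 (10.16) and isoflurane 10 (10.06). In both of these groups another array was also above every control. Choroid plexus markers were above every control (at most 7.76) on replicate 3 of halothane 10 (8.00) and isoflurane 5 (7.98). Oligodendrocyte markers on halothane 10 (8.67) were below every control (9.01 to 9.56). The same 4 arrays were those of the high spike-in level among the exposed, and the part of the markers or of the spike-in level in the members' values was not tested. The 5 controls at the high spike-in level had striatal marker means from 7.35 to 7.87, the range of all controls.

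**Figure D3:**
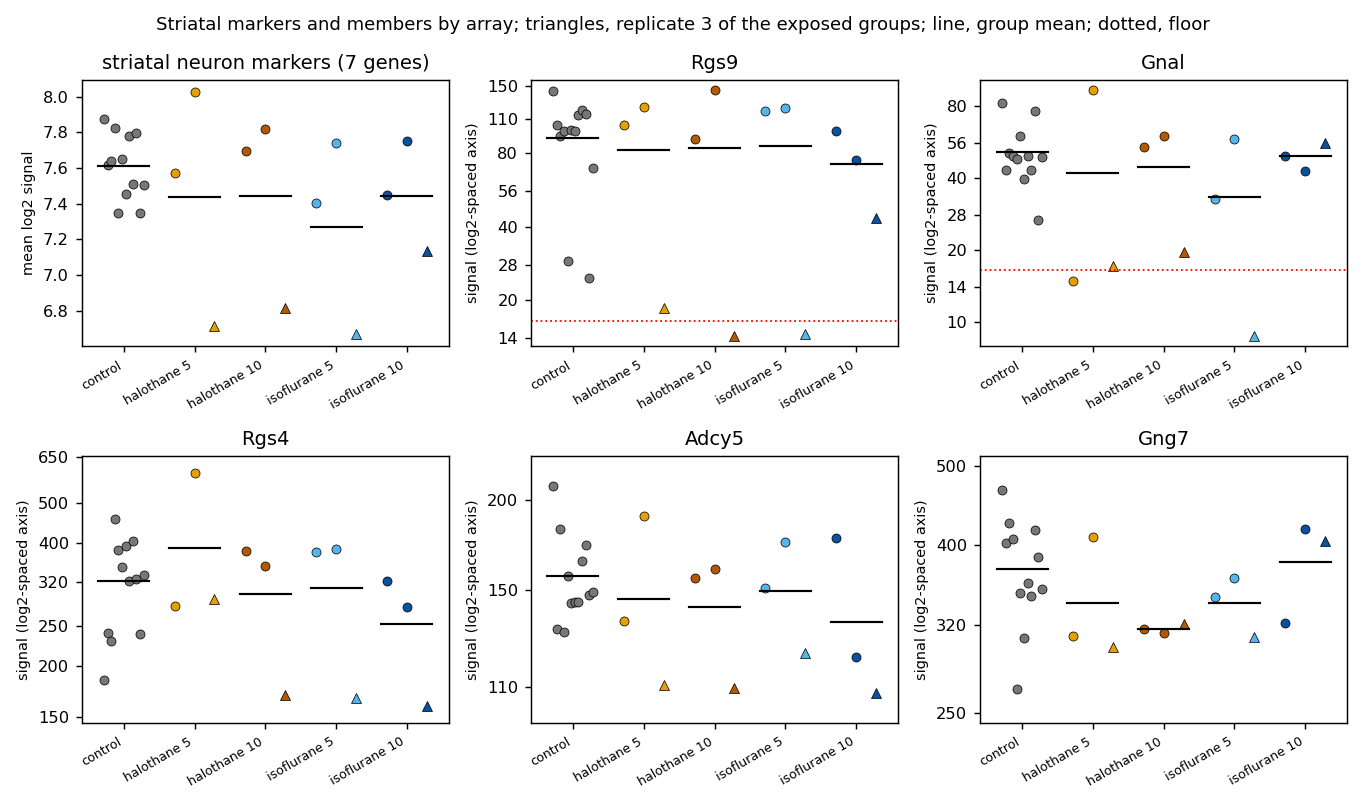
Mean log2 signal of 7 striatal neuron markers and the signal of 5 members on each array; triangles are replicate 3 of the exposed groups, lines are group means and the dotted line is the floor of 16.5. The 4 triangles are the lowest exposed arrays for the markers and Rgs9, and all lie below every control for Adcy5, while for Gng7 they lie inside the control range. For Adcy5, isoflurane 10 replicate 2 also lies below every control (121.1).

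These arrays set the direction of several members. The mean of the exposed groups gave -0.39 for Rgs9 (95% interval -1.24 to 0.46, adjusted p = 0.809) with all arrays and 0.38 (adjusted p = 0.612) without replicate 3. For Gnal it was -0.43 (adjusted p = 0.683) and -0.10 (adjusted p = 0.891), and for Adcy5 -0.14 (adjusted p = 0.729) and 0.014 (adjusted p = 0.965). Rgs4, singled out after its values were seen, gave -0.093 (adjusted p = 0.915) and 0.22 (adjusted p = 0.611). Gng7 gave -0.11 (adjusted p = 0.715) and -0.092 (adjusted p = 0.702), and its other probe set gave -0.25 with all arrays.

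**Figure D4:**
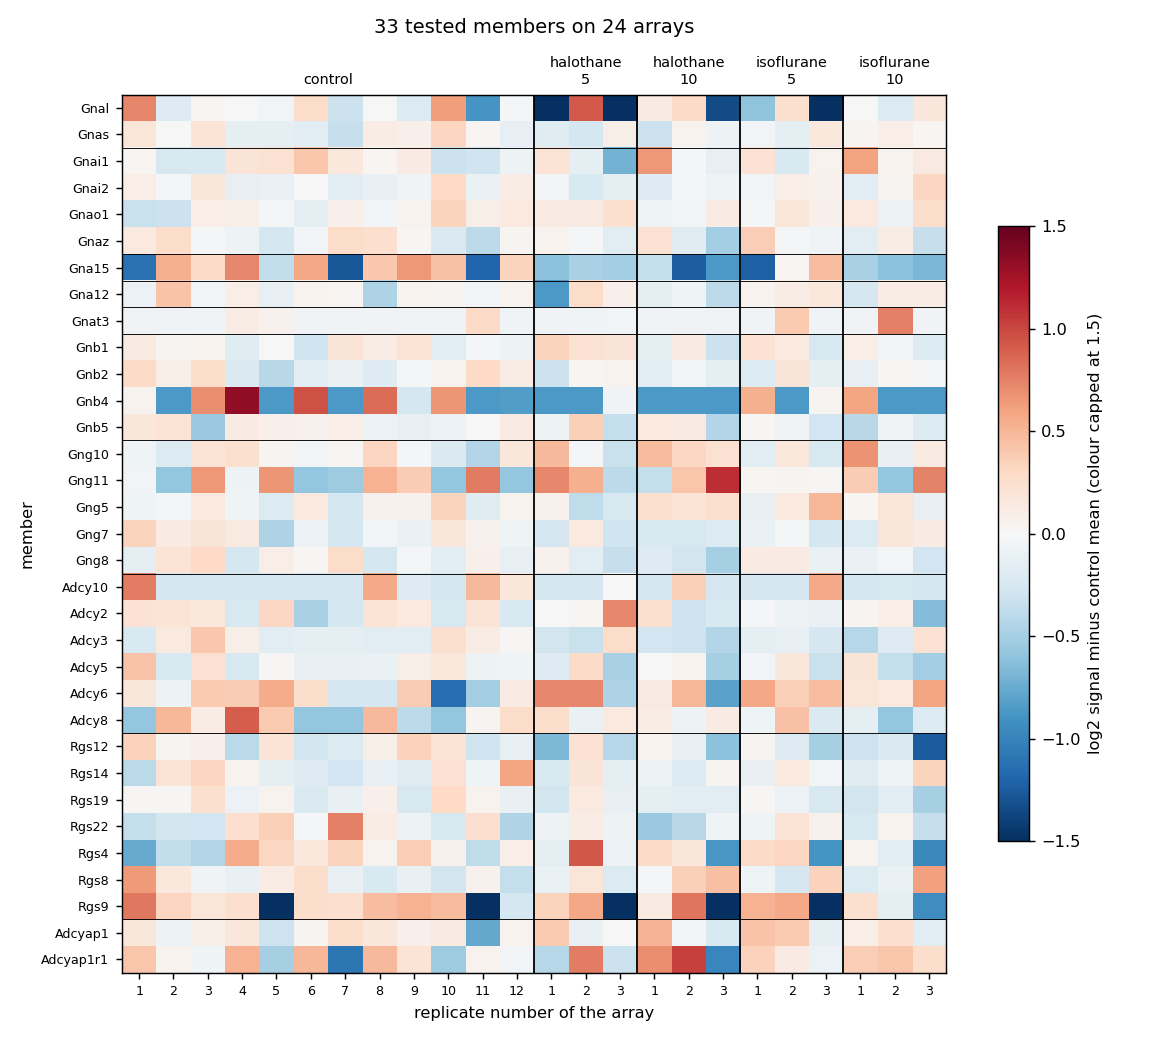
Log2 signal minus the control mean for the 33 tested members (rows, by subfamily) on the 24 arrays (columns, by group and replicate number), with colour capped at 1.5. Rgs9 and Gnal are far below the control mean on most replicate 3 columns of the exposed groups, and Rgs9 also on controls 5 and 11.

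The sequences upstream of Rgs9, Gnal and Rgs4 are shown because these members differed most between the replicate 3 arrays and the other exposed arrays, and they were chosen after those values were seen. A RefSeq promoter entry (GRCr8) was matched for 29 of the 37 members. Each sequence is the 250 bases before the annotated start, from 5′ to 3′ on the strand of the gene, and capitals mark matches to 3 motifs searched on both strands: a TATA box, a half-site of the cyclic AMP response element and a GC box. Rgs9 lies on the minus strand at chr10:94770388-94770637, Gnal on the plus strand at chr18:62892007-62892256 and Rgs4 on the minus strand at chr13:84475885-84476134.
Rgs9: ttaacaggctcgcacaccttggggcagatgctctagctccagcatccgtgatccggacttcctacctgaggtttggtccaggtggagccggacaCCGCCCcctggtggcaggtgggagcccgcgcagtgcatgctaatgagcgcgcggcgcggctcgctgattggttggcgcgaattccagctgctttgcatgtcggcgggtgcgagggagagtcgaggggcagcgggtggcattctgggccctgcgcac
Gnal: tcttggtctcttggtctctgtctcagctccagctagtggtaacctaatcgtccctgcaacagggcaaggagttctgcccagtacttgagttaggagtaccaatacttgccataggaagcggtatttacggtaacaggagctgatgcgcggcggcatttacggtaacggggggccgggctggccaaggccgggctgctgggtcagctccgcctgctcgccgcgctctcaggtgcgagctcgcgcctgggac
Rgs4: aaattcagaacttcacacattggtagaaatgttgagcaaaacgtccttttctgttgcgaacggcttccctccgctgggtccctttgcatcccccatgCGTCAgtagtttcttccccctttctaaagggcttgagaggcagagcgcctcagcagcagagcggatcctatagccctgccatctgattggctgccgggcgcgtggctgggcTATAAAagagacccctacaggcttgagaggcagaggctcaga
Rgs9 held a GC box (GGGCGG) on the opposite strand, 156 to 151 bases before the start, and 30.5% of all 33469 promoters in the table held one in a window of this length. Rgs4 held a TATA box (TATAAA) 42 to 37 bases before the start, a motif found in 12.9% of all promoters. The response element half-site (TGACG) lay on the opposite strand, 153 to 149 bases before the start, and 18.2% of all promoters held it. None of the 3 motifs was found in the Gnal window. No marked match overlapped another, and these matches are a description of the letters only.

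Within the 12 controls, where repeated exposure plays no part, the striatal members were set against the mean of the 7 striatal markers. These members and markers were chosen with earlier results of these data known, so the p-values here are not those of a blind choice. Pearson's r was 0.77 for Rgs9, 0.75 for Gnal, 0.71 for Gng7 and 0.26 for Adcy5, and Spearman's coefficient was 0.66, 0.84, 0.68 and 0.091 in the same order. Only the chosen probe sets of these 4 members were correlated with the markers. How common such values are among other members, or over all probe sets, was not examined. In two-sided permutation tests of r, adjusted over these 4 members, p was 0.0026 for Rgs9, 0.00654 for Gnal, 0.0112 for Gng7 and 0.409 for Adcy5; for Spearman's coefficient the adjusted values were 0.0297, 0.0034, 0.0297 and 0.781. Rgs9 signals of 24.8 and 29.1 were found in controls 11 and 5, the controls with the lowest marker means (7.35 each). Leaving out those 2 arrays, r was 0.55 for Rgs9 (adjusted permutation p = 0.123), 0.74 for Gnal and 0.76 for Gng7 (0.0286 for both), so the Rgs9 relation rests on them.

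The spike-in level split the controls into 7 low and 5 high arrays, and 5 are too few for a correlation. Within the 7 low controls r was 0.84 for Gng7, 0.62 for Rgs9, 0.42 for Gnal and -0.65 for Adcy5, with adjusted p of 0.0643, 0.159, 0.349 and 0.159 in exact permutation tests. By r the relation passed the threshold for no member within that level, while Spearman's coefficient for Gng7 was 0.89 (adjusted exact permutation p = 0.0492). With the spike-in level regressed out over all 12 controls, r was 0.79 for Rgs9, 0.75 for Gnal, 0.79 for Gng7 and 0.26 for Adcy5. These arrays share scaling and tissue makeup, and the correlations are across arrays of whole brain.

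**Figure D5:**
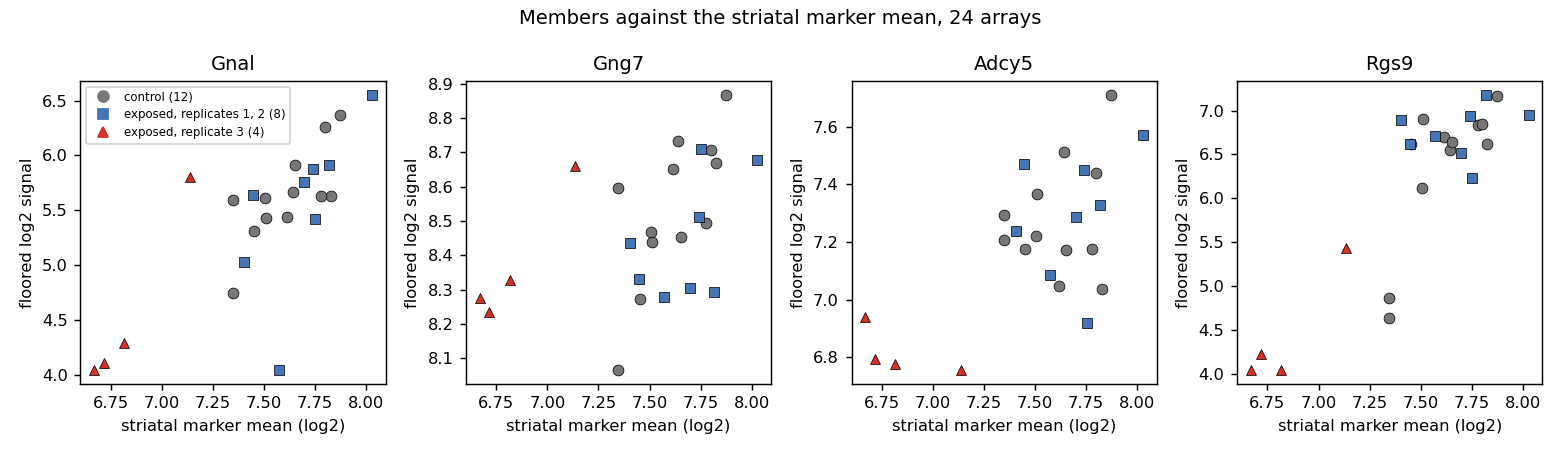
Floored log2 signal of Gnal, Gng7, Adcy5 and Rgs9 against the mean log2 signal of 7 striatal markers on 24 arrays (grey circles, 12 controls; blue squares, exposed replicates 1 and 2; red triangles, exposed replicate 3). Within the controls r was 0.75, 0.71, 0.26 and 0.77, and the triangles have the lowest marker means.

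The controls also give the precision of each member. The SD of the log2 signal over the 12 controls had a median of 0.23 among the tested members, against 0.30 over all probe sets, and 22 of the 33 members were below the median of all. It was 0.86 for Gnb4, 0.80 for Rgs9 and 0.77 for Gna15, the highest of the members. It was 0.43 for Gnal, whose interval was nonetheless wider than that of Gna15.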

How the data were processed

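Whole brain RNA was measured on 24 single-colour arrays. The deposited table holds a linear-scale intensity for each probe set on each array, per its values. The sources used here do not give the scaling software. The values' trimmed mean (2% trimmed at each end) was equal on all arrays to within 0.1, so the authors' values carry a global scaling. Of 8799 probe sets, 59 control probe sets were left out. Intensities were raised to the 25th percentile of the table (16.5) and log2 was taken. Probe sets above that floor on at least 3 arrays were kept (7389). Groups followed the sample titles. A model with 5 groups was fitted in limma 3.58.1 (R 4.3.3) with a trended prior, and p-values were adjusted by Benjamini and Hochberg over all 7389 probe sets. The fit was tested on simulated data. The number of arrays limits the precision, and no depth applies.

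Gene symbols came from the platform's annotation, and all 37 member symbols are in a current RefSeq table. A probe set with 2 symbols was not named. The members and lists were chosen with earlier results of these data known. The genes named were any past the threshold, the 5 members with the lowest p in each comparison with control and the 3 lowest in the others, the 2 lowest of each subfamily, members whose 3 arrays lay outside the control range, 4 striatal members, and the 2 lowest of each pathway list in each comparison with control. Upstream sequences were read from a RefSeq table (GRCr8).

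Other floors, filters, normalizations, arrays and a replicate block were tried. Replicate numbers come from the titles. Deviations of same-numbered arrays from their group means correlated at -0.18 to 0.31 with controls, and 4 of 12 pairs were over 0.1. Among exposed groups they correlated at 0.09 to 0.52, and 16 of 18 pairs were over 0.1. Every pair was over 0.1 for halothane 10 with isoflurane 10 and for isoflurane 5 with isoflurane 10. The same held for halothane 10 with isoflurane 5 and for halothane 5 with isoflurane 10, which were not compared. The control pairs over 0.1 were all of replicate 3, and control 3 was also at the high spike-in level. The part of that level in these correlations was not tested. Of the comparisons made, the numbers were taken to pair the samples in the first 2 named only. With the replicate block, 0 members passed in either of them.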

Additional observations from a re-analysis of the deposited data

How the results depend on the processing

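The count of 0 members called held in all 9 comparisons under each of 15 alternatives (14 for the mean of the exposed groups) and with each of 24 arrays left out in turn, 350 fits in all. The alternatives covered the floor, the filter on low signals, normalization, the choice of probe set, the spike-in level, the samples in the fit and the replicate block. With the replicate block 0 members passed in any comparison, and the lowest adjusted p of a member was 0.139 (Gnao1, 0.28, mean of the exposed groups). Over the alternatives of that comparison the lowest member's adjusted p ran up to 0.545. Replicate numbers above 3 occur in controls only, so with the block every comparison with control rests on controls 1 to 3. These numbers were not taken to pair controls with exposed arrays. Controls 1 and 2 had the lowest Gnao1 signals of all controls (946.6 and 951). The block therefore cannot show whether the Gnao1 value holds against all controls. Leaving out replicate 3 of the exposed groups was chosen after seeing the data, as were the low spike-in controls.

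Of 51 member values named by the rule, 9 changed sign in some setting. Gnal with 5 halothane exposures was 0.0020 with the floor at the 40th percentile. Gnat3 with 10 isoflurane exposures ran from -0.051 to 0.35 with 1 array left out, and for the mean of the exposed groups from -0.013 to 0.088. Gna12 for that mean ran from -0.13 to 0.016. On low spike-in arrays only, the mean of the exposed groups was 0.11 for Adcy5, 0.0077 for Gng7 and 0.30 for Rgs9. Without exposed replicate 3 it was 0.014 for Adcy5, 0.045 for Gnaz, 0.0052 for Gnb5 and 0.38 for Rgs9. None of these values passed a threshold, and the cause was not tested. Leaving out 1 array moved 26 of the 51 values by over 1.5 times in some case, among them Gnal with 5 halothane exposures (-1.56 to -0.30) and with 5 isoflurane exposures (-1.09 to -0.18). The correlation of Rgs9 with the striatal markers was 0.55 without the 2 farthest controls. On the 7 low spike-in controls it was 0.62 for Rgs9, 0.42 for Gnal, 0.84 for Gng7 and -0.65 for Adcy5, with fewer samples. Signals of Gnat3, Adcy10, Gnb4, Kcnj5 and Akap5 lay near or under the floor, which limits what can be said of them.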
